A study of Mus musculus with 8 samples.

Results

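Transcript levels of 9 Sox genes, Sox2, Sox4, Sox5, Sox6, Sox8, Sox9, Sox11, Sox17 and Sox18, were examined across 8 arrays of E11.5 mouse embryos. They are members of the Sox family other than Sox10, chosen by gene family name, and each was read from the brightest of its probe sets. They make up 9 of the 18193 genes that had a probe set of their own. Of 33 probe sets annotated to these genes, 29 passed the filter on dim signal, and all 9 genes were tested.

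The series compared FAK mutants with controls in 4 origins, and each origin had 1 control and 1 mutant array, so that n = 4 per genotype and n = 2 per origin. FAK stands for focal adhesion kinase, a tyrosine kinase that acts where integrins bind the matrix. The p75-sorted cells were cranial neural crest cells taken by sorting for p75, the surface receptor encoded by Ngfr, with 3 embryos pooled behind each array. The other 3 origins are labelled LM, OFT and UM, abbreviations that the labels do not spell out. The titles of all 8 arrays name the head and neck, whereas the description of the p75-sorted cells names dissected head and thorax. The day of the 6 LM, OFT and UM arrays is known only from the series title. The sources used here do not give the number of embryos behind each of them. The kind of FAK allele, any Cre line that drives it and the strain are likewise not given in the sources used here. The targeted gene, Ptk2, was not analysed here. With 1 array per origin and genotype, the control and mutant array of an origin stood in as its replicates. Each p-value sets a difference against an error. That error comes from how unevenly the genotypes differed from origin to origin, moderated by limma over all genes.

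Sox proteins bind DNA through an HMG box like that of the testis-determining factor Sry, bend it, and usually act together with a partner factor. They fall into groups by sequence. Sox2 belongs to the SoxB1 group, which keeps neural progenitors, sensory placodes and foregut epithelium undifferentiated; the SoxC genes Sox4 and Sox11 act in embryonic mesenchyme and in newborn neurons. The SoxD proteins Sox5 and Sox6 lack an activation domain of their own and help the SoxE protein Sox9 to switch on cartilage genes. Sox8 and Sox9 share the SoxE group with Sox10 and act in neural crest, whereas the SoxF genes Sox17 and Sox18, with their relative Sox7, act in the endothelium of blood and lymph vessels.

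Promoter sequence was held for 6 of the 9 genes, in RefSeq's mouse assembly GRCm38.p6, as the 250 bases that precede the annotated start. Sequences of 3 of them are printed, Sox2 because it had the widest difference among LM, OFT and UM, and Sox4 and Sox11 because they are the SoxC pair, bright on every array. Sox2 lies on the plus strand at chr3:34649745-34649994, Sox4 on the minus strand at chr13:28953700-28953949 and Sox11 on the minus strand at chr12:27342719-27342968. Each is written 5′ to 3′ on the strand of its gene, and capitals mark matches to CCAAT or GGGCGG on either strand.
Sox2: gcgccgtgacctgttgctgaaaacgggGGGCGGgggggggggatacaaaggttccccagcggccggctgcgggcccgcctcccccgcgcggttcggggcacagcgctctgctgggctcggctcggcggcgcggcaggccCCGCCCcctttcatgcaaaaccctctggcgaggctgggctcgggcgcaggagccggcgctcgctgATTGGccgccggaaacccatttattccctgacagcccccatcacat
Sox4: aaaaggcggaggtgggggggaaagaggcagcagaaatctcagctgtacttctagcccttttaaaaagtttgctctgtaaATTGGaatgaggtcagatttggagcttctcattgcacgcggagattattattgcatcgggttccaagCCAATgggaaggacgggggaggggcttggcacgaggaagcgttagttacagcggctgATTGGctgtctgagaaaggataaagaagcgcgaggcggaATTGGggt
Sox11: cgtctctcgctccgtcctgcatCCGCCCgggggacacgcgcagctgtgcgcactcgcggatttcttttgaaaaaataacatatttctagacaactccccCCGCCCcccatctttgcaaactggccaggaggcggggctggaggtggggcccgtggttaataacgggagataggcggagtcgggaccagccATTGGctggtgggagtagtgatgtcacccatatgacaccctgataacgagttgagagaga
The Sox4 window held 4 matches to CCAAT and 0 to GGGCGG. The windows of Sox2 and Sox11 each held 1 match to CCAAT and 2 to GGGCGG. Among all 32851 promoter windows of this length, 33.8% held CCAAT and 32.7% held GGGCGG. The TATA box, searched as TATAAA on both strands, occurs in 12.4% of all windows. The E-box, searched as CACGTG, occurs in 6.02%. A core of the Sox motif, searched as AACAAT, occurs in 9.42% of them. The 3 printed windows held 0 matches to these 3 motifs. The GC content was 72% for Sox2, 50.8% for Sox4 and 58% for Sox11, against a median of 52.4% over all windows.

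Values are linear intensities with nearly the same trimmed mean on every array, 149.951 to 149.957. Ngfr, the sorting marker, read 1043 and 1422 in p75-sorted cells and 47.0 to 149 on the 6 remaining arrays. A control differed there too: the 3′ probe set of Gapdh divided by its 5′ probe set gave 2.82 and 4.91 in p75-sorted cells, control then mutant, and 0.700 to 0.986 elsewhere. For Actb it was 1.57 and 1.65, within the 1.42 to 1.94 of the other arrays. The 3′ control probe set of 18S ribosomal RNA read 1915 and 4774 in p75-sorted cells and 169 to 629 elsewhere. The part of the Gapdh and 18S values in the differences between p75-sorted cells and other origins was not tested, and for that pair sorting, pooling and origin cannot be told apart. Over all probe sets the LM mutant correlated more with the UM control, at 0.987, than with its own control, at 0.979. On the OFT arrays the heart muscle genes summed to intensities of 13757 to 15786, against 37.0 to 456 elsewhere.

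Of the 9 Sox genes, 6 differed among the 4 origins in limma's moderated F test, namely Sox2, Sox4, Sox5, Sox9, Sox17 and Sox18. Among all 13545 genes tested, 6290 did, a background of 46.4%. Sox6, Sox8 and Sox11 did not pass. With the mean of all probe sets of a gene the count was again 6, but Sox6 and Sox11 passed and Sox4 and Sox5 did not. Differences between origins are given as log2 of intensity plus 32, which understates the folds of dim genes, with limma's moderated SE and the Benjamini-Hochberg adjusted p over all genes. In OFT against LM, 2 Sox genes were higher, Sox9 and Sox17, and 0 were lower, where 8.77% of all genes were higher and 2.18% lower; the median difference was 0.43 over the Sox genes and 0.02 over all genes. In OFT against UM the same 2 genes were higher and 1, Sox2, was lower, beside backgrounds of 9.01% higher and 3.09% lower and medians of 0.30 and 0.01. In LM against UM, 1 of the 9, Sox2, was lower and 0 were higher, whereas 0.819% of all genes were lower and 0.738% higher.

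Against LM, p75-sorted cells had 2 Sox genes higher, Sox2 and Sox5, and 4 lower, Sox4, Sox9, Sox17 and Sox18. The background in that comparison was 26.1% higher and 15.9% lower. Against OFT the same 6 genes passed in the same directions, beside 19.2% of all genes higher and 15.4% lower. Against UM, Sox5 was higher and Sox9, Sox17 and Sox18 were lower, beside 26% higher and 16% lower. The median over the Sox genes was -0.12, -0.37 and -0.35 in these 3 comparisons, and over all genes it was 0.09, 0.07 and 0.09. The 3 comparisons share the p75-sorted arrays. All tissue values here are bulk measurements, in which fewer cells of a type and less RNA per cell cannot be told apart.

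**Figure D1:**
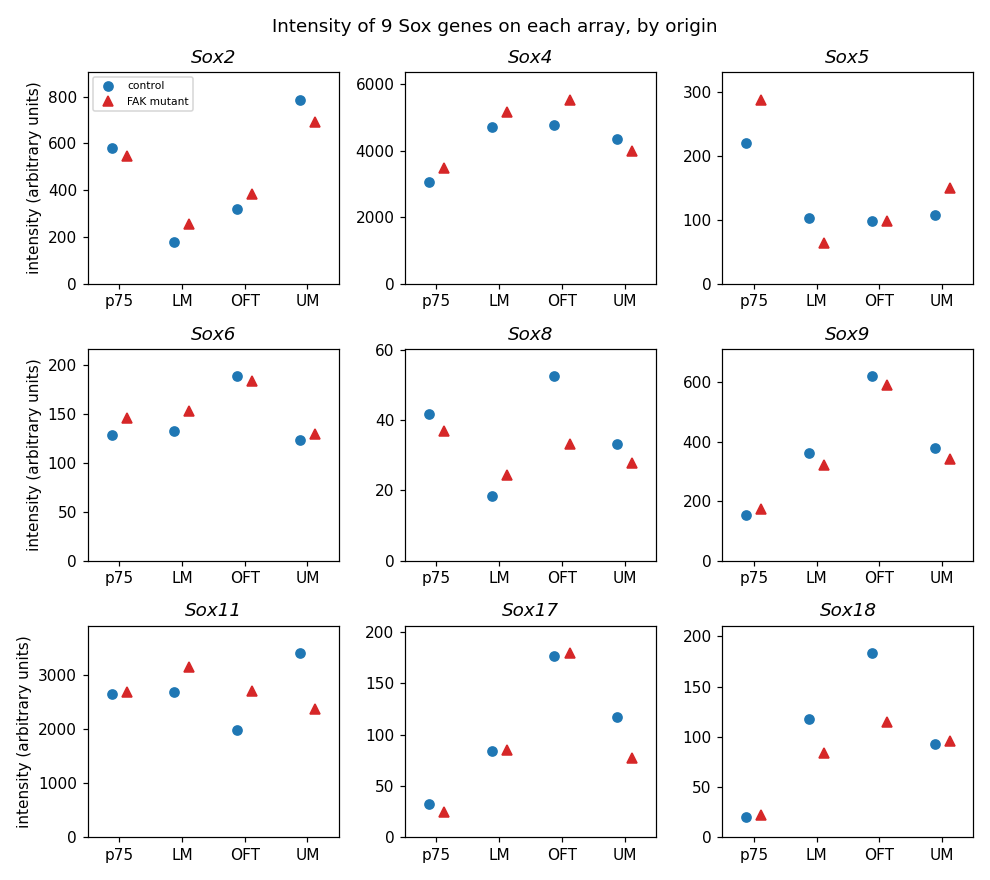
Intensity of the 9 Sox genes in arbitrary units (vertical axis from 0, scaled per gene) on each of the 8 arrays, by origin; circles are controls and triangles FAK mutants, 1 array each. Sox2 is highest on the UM arrays, 691 and 788, Sox5 on the p75-sorted arrays, 220 and 289, and Sox9 and Sox17 on the OFT arrays, while Sox18 is near 20.4 and 22.1 on the p75-sorted arrays.

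**Figure D2:**
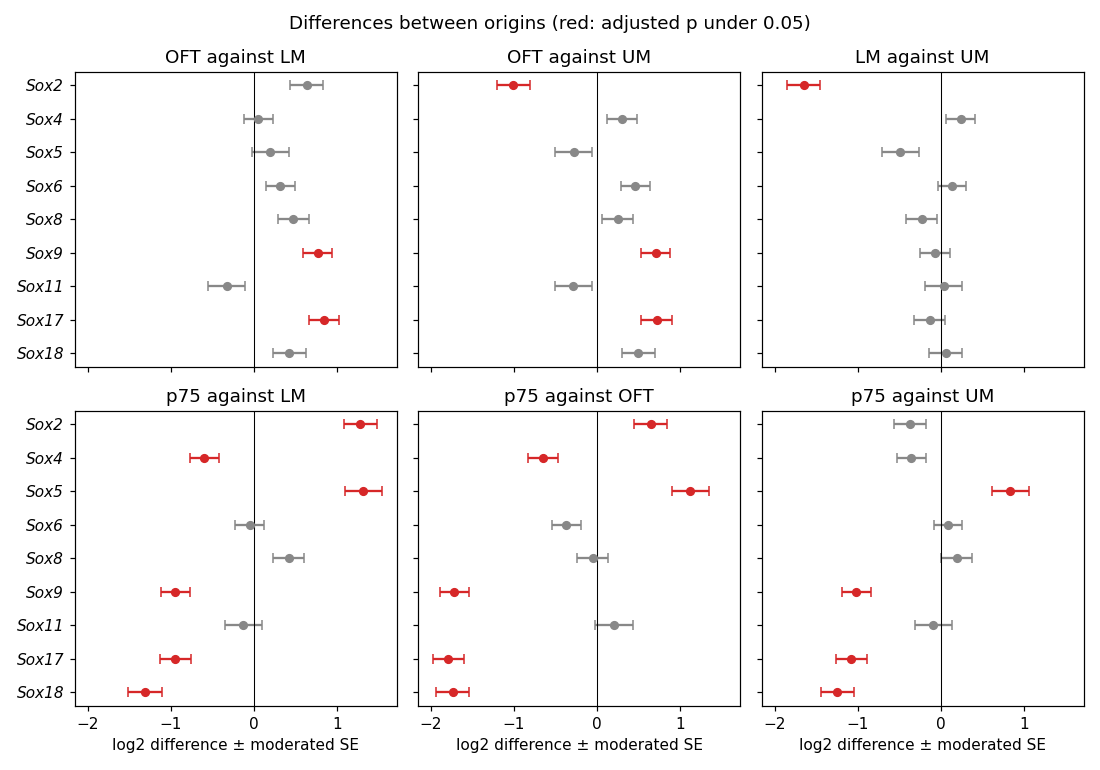
Log2 difference (horizontal axis) of each of the 9 Sox genes in the 6 comparisons of origins, with the moderated SE as bars and n = 2 arrays per origin; red points have a limma adjusted p under 0.05 and grey points do not. Sox2 is the red point in LM against UM, at -1.65, and Sox9, Sox17 and Sox18 lie to the left of 0 in each comparison of p75-sorted cells.

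Sox2, the SoxB1 gene, was high in UM and p75-sorted cells and low in LM. Its intensities, control then mutant, were 788 and 691 in UM, 582 and 548 in p75-sorted cells, 319 and 384 in OFT, and 178 and 255 in LM. No value of one origin overlapped those of another. LM was 3.14-fold below UM, at -1.65 ± 0.20 (adjusted p = 0.00073), and OFT was 2.01-fold below UM, at -1.01 ± 0.20 (adjusted p = 0.0049). p75-sorted cells were 2.43-fold above LM, at 1.28 ± 0.20 (adjusted p = 0.00036), and 1.56-fold above OFT, at 0.64 ± 0.20 (adjusted p = 0.025). They differed from UM by -0.37 ± 0.20 (adjusted p = 0.16), and OFT from LM by 0.64 ± 0.20 (adjusted p = 0.059), neither of which passed. In order, UM and p75-sorted cells were not separated, OFT came below both, and OFT and LM were not separated. The call for OFT against UM ended without the OFT control (-0.92, adjusted p = 0.10) or without the UM control (-0.82, adjusted p = 0.070), and that for p75-sorted cells against OFT without any 1 of their 4 arrays (adjusted p of 0.072 to 0.17). Without the LM mutant, in turn, OFT passed as higher than LM (0.87, adjusted p = 0.032).

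Other genes of cells that use Sox2 were counted in the same fit. Of 9 neural progenitor genes tested, 1 was lower in LM than in UM, Pax6, a paired-box regulator of eye and brain, at -1.44. In OFT against UM, 2 were lower, Pax6 at -1.40 and Pou3f3, a POU factor of neural progenitors, at -2.79; in OFT against LM, 1 was lower, Pou3f3 at -1.99. p75-sorted cells had 5 of the 9 higher than LM, led by Fabp7, a fatty acid binding protein of radial glia, at 4.08 and by Nes, the progenitor filament nestin, at 2.88. Against OFT 5 were higher and against UM 4 were higher and 2 lower. Nes varied within origins, and its difference from LM had an SE of 0.49. It read 286 and 830 in p75-sorted cells and 99.0 and 6.73 in LM, control then mutant. Summed over the list, intensities were 5757 to 6077 in p75-sorted cells, 2657 to 2790 in UM, 2081 to 2595 in LM and 1660 to 2033 in OFT. Single bright genes weighed heavily in these sums. Prom1 alone read 1502 and 1272 in LM and 926 and 867 in OFT, control then mutant. Fabp7 read 2494 and 2056 in p75-sorted cells. Of 8 epithelial genes, 3 were lower in LM than in UM, Epcam at -1.11, Cldn6 at -1.10 and Krt8 at -0.78, and 4 were lower in OFT than in UM; in OFT against LM, 2 were higher and 2 lower. p75-sorted cells had 6, 6 and 7 epithelial genes below LM, OFT and UM, with 0 above. Summed epithelial intensities were 2315 to 2789 in UM, 1890 to 1916 in OFT, 1380 to 1457 in LM and 481 to 606 in p75-sorted cells. Whether epithelial or neural cells contributed to the Sox2 values was not tested.

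Sox4 and Sox11, the SoxC genes, were bright on every array, and their probe sets disagreed. Sox4 had intensities of 3069 and 3476 in p75-sorted cells, 4726 and 5168 in LM, 4768 and 5547 in OFT, and 4368 and 3990 in UM. The p75-sorted values lay below all others. By this probe set Sox4 was 1.51-fold lower in p75-sorted cells than in LM, at -0.59 ± 0.18 (adjusted p = 0.018), and 1.57-fold lower than in OFT, at -0.65 ± 0.18 (adjusted p = 0.014). Against UM the difference was -0.35 ± 0.18 (adjusted p = 0.13). By the same probe set LM, OFT and UM differed among themselves by at most 0.30. No neighbours in the order OFT, LM, UM, p75-sorted cells were separated by it. In OFT against UM, the 6 Sox4 probe sets that passed the filter ran from -0.55 to 0.83. Of these 1, 1419156_at, was called higher (adjusted p = 0.029), and 0 were called lower. Of the 6 Sox4 probe sets that passed the filter, 3 were called higher and 3 lower in p75-sorted cells than in LM, from -2.49 to 1.48. The extremes were the probe sets 1419157_at, with intensities of 92.6 and 78.1 in p75-sorted cells and 601 and 655 in LM, and 1419156_at, with 1264 and 1274 against 503 and 377. Both are annotated to the same transcript record, and the direction of Sox4 between p75-sorted cells and other origins therefore depends on the probe set read. The calls against LM and OFT also ended without any 1 of the 4 arrays compared (adjusted p of 0.057 to 0.16), and with the mean of all Sox4 probe sets the differences were -0.16 (adjusted p = 0.36) and -0.24 (adjusted p = 0.19). After quantile normalization the difference from LM was -0.38 (adjusted p = 0.11).

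Sox11 had intensities of 2662 and 2690 in p75-sorted cells, 2696 and 3162 in LM, 1986 and 2713 in OFT, and 3413 and 2371 in UM. All origins overlapped but for the p75-sorted cells and LM, which lay side by side. Its largest difference by the brightest probe set was OFT against LM, at -0.33 ± 0.22 (adjusted p = 0.41), and its adjusted p among the 4 origins was 0.56. The other probe sets moved further. All 6 were below 0 in OFT against LM, from -2.31 to -0.33 with 1 called, and all 6 were below 0 in OFT against UM, from -2.54 to -0.29 with 2 called. In the first of these the called probe set, 1431225_at, read 265 and 880 in OFT and 2437 and 2669 in LM. In p75-sorted cells against OFT, 2 probe sets were called higher and 1 lower, from -1.24 to 1.34. Against LM, 3 were called lower and 0 higher, from -1.82 to 0.53. Against UM, 4 were called lower and 0 higher, from -1.89 to 0.51. With the mean of the 6 probe sets, Sox11 passed as lower in OFT than in LM (-0.80, adjusted p = 0.0075) and UM (-0.85, adjusted p = 0.0048), and as lower in p75-sorted cells than in LM (-0.68, adjusted p = 0.0055) and UM (-0.73, adjusted p = 0.0037).

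**Figure D3:**
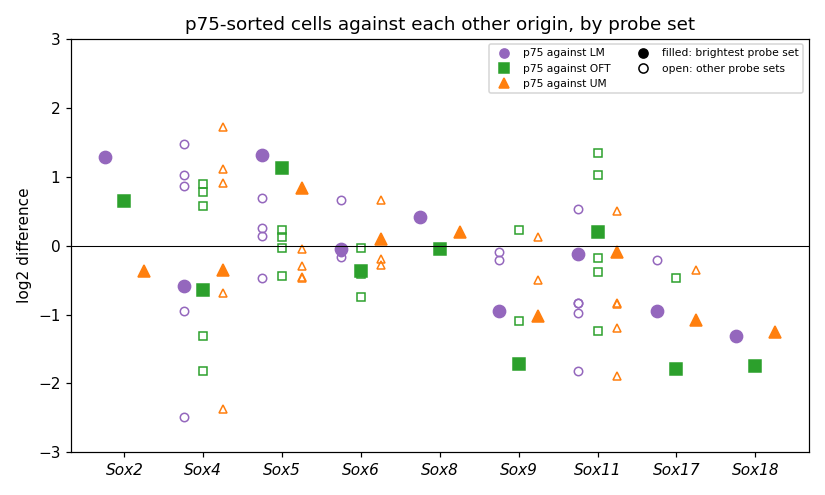
Log2 difference (vertical axis) of p75-sorted cells from LM (circles), OFT (squares) and UM (triangles) for every probe set of the 9 Sox genes that passed the filter; filled symbols are the brightest probe set of a gene and open symbols the others. The 6 Sox4 probe sets spread from -2.49 to 1.48 against LM, on both sides of 0, whereas Sox18 and Sox2 have 1 probe set each.

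Neuronal genes, which SoxC proteins help to switch on in newborn neurons, were counted in the same fit. All 10 neuron genes were higher in p75-sorted cells than in LM, led by Dcx at 3.44, Stmn2 at 3.23 and Tubb3 at 3.03, which encode proteins of the neuronal microtubule. Against UM 9 were higher, and against OFT 5 were higher and 1 lower. OFT had 8 above LM and 5 above UM, with 0 below, and LM had 3 below UM, Stmn2 at -2.47, Elavl4 at -1.57 and Tubb3 at -1.26. The summed intensities were 5255 to 8139 in p75-sorted cells, 3717 to 5685 in OFT, 1639 to 2425 in UM and 985 to 1464 in LM.

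Sox5 and Sox6, the SoxD genes, differed in their pattern: by the brightest probe sets, Sox5 was high in p75-sorted cells and Sox6 passed no comparison. Sox5 had intensities of 220 and 289 in p75-sorted cells, 107 and 150 in UM, 98.6 and 98.8 in OFT, and 104 and 63.6 in LM. Both p75-sorted values lay above the other 6. The gene was 2.50-fold higher there than in LM, at 1.32 ± 0.22 (adjusted p = 0.00065), 2.18-fold higher than in OFT, at 1.12 ± 0.22 (adjusted p = 0.0025), and 1.79-fold higher than in UM, at 0.84 ± 0.22 (adjusted p = 0.010). Neighbours among UM, OFT and LM were not separated. Of the 5 Sox5 probe sets that passed the filter, 4 were above 0 and 2 called higher in p75-sorted cells against LM. Against OFT 3 were above 0 and 2 below, with 1 called higher. Against UM the brightest alone was above 0. The next, 1455535_at, was nearly as bright, with a mean intensity of 140 against 141. It read 153 and 176 in p75-sorted cells and 167 and 177 in UM. Its differences were 0.23 from OFT (adjusted p = 0.34) and -0.05 from UM (adjusted p = 0.84), neither called. The mean of the probe sets took in all 7 of Sox5, also those that failed the filter. With it the differences from LM, OFT and UM were 0.33 (adjusted p = 0.080), 0.20 (adjusted p = 0.28) and -0.03 (adjusted p = 0.89), none of them called. Without the p75-sorted mutant the calls against OFT (0.93, adjusted p = 0.058) and UM (0.64, adjusted p = 0.14) ended, and that against UM also without the UM control (0.62, adjusted p = 0.11).

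Sox6 had intensities of 189 and 184 in OFT, 132 and 154 in LM, 129 and 146 in p75-sorted cells, and 124 and 130 in UM. The OFT values lay above the other 6. OFT exceeded UM by 0.46 ± 0.17 (adjusted p = 0.11) and LM by 0.32 ± 0.17 (adjusted p = 0.28), neither of which passed. All 4 Sox6 probe sets were above 0 in both comparisons, and 1 of them, 1447655_x_at, was called higher in OFT than in LM at 0.71 (adjusted p = 0.027) and than in UM at 0.71 (adjusted p = 0.025). That probe set, of a type that can match several transcripts, was also called higher in p75-sorted cells than in LM, at 0.67 (adjusted p = 0.0096). There the brightest differed by -0.05. Another, 1434918_at, was called lower in p75-sorted cells than in OFT, at -0.74 (adjusted p = 0.011). With the mean of the probe sets, Sox6 passed in OFT against LM (0.48, adjusted p = 0.046) and in p75-sorted cells against OFT (-0.39, adjusted p = 0.046).

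Sox9, the SoxE gene of cartilage, valve and outflow cushion precursors, was highest in OFT and lowest in p75-sorted cells. Its intensities were 619 and 591 in OFT, 377 and 342 in UM, 360 and 323 in LM, and 152 and 172 in p75-sorted cells. UM and LM overlapped, and the other origins lay apart from them and from each other. OFT was 1.71-fold above LM, at 0.77 ± 0.18 (adjusted p = 0.013), and 1.63-fold above UM, at 0.70 ± 0.18 (adjusted p = 0.021). p75-sorted cells were 3.29-fold below OFT, at -1.72 ± 0.18 (adjusted p = 3.0e-05), 2.02-fold below UM, at -1.01 ± 0.18 (adjusted p = 0.00078), and 1.93-fold below LM, at -0.95 ± 0.18 (adjusted p = 0.0012). Those 3 calls held in every one of the 15 alternatives run on each, and with the mean of the probe sets the differences were -0.86, -0.46 and -0.42. Of the 3 Sox9 probe sets, the second, 1451538_at, gave 0.88 in OFT against LM (adjusted p = 0.012) and -1.09 in p75-sorted cells against OFT (adjusted p = 0.0010). It was not called in p75-sorted cells against LM, at -0.21 (adjusted p = 0.41), or against UM, at -0.49 (adjusted p = 0.054). Nor was it called in OFT against UM, at 0.60 (adjusted p = 0.069). The third probe set was dim and not called. The call for OFT against LM ended without the LM mutant, the OFT control or the OFT mutant (differences of 0.71, 0.76 and 0.78, adjusted p of 0.075, 0.15 and 0.098), and that for OFT against UM without any 1 of the 4 arrays compared (adjusted p of 0.075 to 0.20). With the mean of the probe sets both calls ended, at 0.44 (adjusted p = 0.082) and 0.40 (adjusted p = 0.11).

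Genes that Sox9 switches on in cartilage were counted beside it. Of 11 tested, 6 were higher in OFT than in LM, with a list median of 0.84, and 6 were higher than in UM, with a median of 1.01; 0 were lower. Acan, Col11a2, Matn3, Matn4 and Comp passed in neither comparison, and Comp differed by -0.61 and -0.27 and Matn3 by -0.31 and -0.46. Hapln1, a link protein of the cartilage matrix, exceeded LM by 2.68 and UM by 2.57. Col9a3, a chain of collagen IX, exceeded both LM and UM by 2.21, and Col2a1, the main cartilage collagen, exceeded them by 1.26 and 1.38. By the brightest probe set, Sox9 was lower in p75-sorted cells than in each other origin. There, 4 of the 11 cartilage genes were lower and 0 higher than in OFT, led by Hapln1 at -2.90. In that comparison 15.4% of all genes were lower and 19.2% higher. Against LM 3 were higher and 1 lower, beside 26.1% of all genes higher and 15.9% lower. Against UM 3 were higher and 0 lower, beside 26% of all genes higher and 16% lower. Col9a3 was higher in p75-sorted cells than in LM by 1.65, as was Col11a1, a chain of collagen XI, by 0.92. In LM against UM, 1 was higher, Col9a1 at 1.20. Summed intensities were 5456 to 6051 in OFT, 2448 to 2811 in LM, 2106 to 2635 in p75-sorted cells and 1585 to 1600 in UM.

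Sox8, a SoxE gene of crest and glia, was dim. It read 52.4 and 33.1 in OFT, 41.8 and 37.0 in p75-sorted cells, 33.1 and 27.9 in UM, and 18.3 and 24.5 in LM. Both LM values lay below the other 6. The largest differences were OFT against LM, at 0.48 ± 0.19 (adjusted p = 0.13), and p75-sorted cells against LM, at 0.42 ± 0.19 (adjusted p = 0.088), and no neighbours in the order were separated. After quantile normalization the latter passed, at 0.52 (adjusted p = 0.044). Sox10, the third SoxE gene, read 1512 and 1620 in p75-sorted cells and 25.3 to 57.5 elsewhere, and exceeded LM, OFT and UM by 4.60, 4.40 and 4.66 (adjusted p of 4.6e-08, 3.8e-08 and 5.3e-08). Sox9, its SoxE relative, was lower in the same cells in each of these comparisons by the brightest probe set. Of 10 crest and glia genes tested, p75-sorted cells had 6 higher and 1 lower than LM, and 7 higher and 1 lower than OFT. Against UM they had 5 higher and 4 lower. The 10 include Sox10 and also Ngfr. Ngfr, the sorting marker, is among the higher genes in each comparison, which the sort fixed in advance. In LM against UM, 3 were lower, Tfap2b at -1.72, Pax3 at -1.65 and Tfap2a at -1.14, regulators of crest formation; OFT had 3 higher and 2 lower than LM, and 3 higher and 4 lower than UM.

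Sox17 and Sox18, the SoxF genes, were lowest in p75-sorted cells. Sox17 read 32.4 and 25.1 in p75-sorted cells, 84.4 and 85.2 in LM, 117 and 77.3 in UM, and 177 and 179 in OFT. The p75-sorted values lay below and the OFT values above all others, and LM lay within the UM pair. OFT was 1.80-fold above LM, at 0.85 ± 0.19 (adjusted p = 0.011), and 1.64-fold above UM, at 0.72 ± 0.19 (adjusted p = 0.025). p75-sorted cells were 3.46-fold below OFT, at -1.79 ± 0.19 (adjusted p = 3.3e-05), 2.11-fold below UM, at -1.07 ± 0.19 (adjusted p = 0.00077), and 1.92-fold below LM, at -0.94 ± 0.19 (adjusted p = 0.0017). The probe set read, 1429177_x_at, is of a type that can match several transcripts. The other Sox17 probe set, 1421657_a_at, had the same sign in all 6 comparisons of origins but was called in none, with -0.48 in p75-sorted cells against OFT (adjusted p = 0.062) and 0.27 in OFT against LM (adjusted p = 0.40). The call for OFT against LM ended without the LM control, the OFT control or the OFT mutant (0.74, 0.96 and 0.73, adjusted p of 0.093, 0.072 and 0.13), and that for OFT against UM without the OFT control, the OFT mutant or the UM mutant (0.83, 0.60 and 0.52, adjusted p of 0.12, 0.22 and 0.23) or with the mean of the probe sets (0.42, adjusted p = 0.084).

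Sox18, a regulator of lymphatic and blood vessel endothelium, read 20.4 and 22.1 in p75-sorted cells, 118 and 83.8 in LM, 183 and 115 in OFT, and 92.6 and 96.0 in UM. LM, OFT and UM overlapped or adjoined, and the p75-sorted values lay far below them. Against OFT, LM and UM the gene was 3.34-fold, 2.48-fold and 2.37-fold lower in p75-sorted cells, at -1.74, -1.31 and -1.25 ± 0.20 (adjusted p of 6.1e-05, 0.00033 and 0.00047). Those 3 calls held in every one of the 15 alternatives run on each. OFT differed from LM by 0.43 ± 0.20 (adjusted p = 0.21) and from UM by 0.49 ± 0.20 (adjusted p = 0.14), neither of which passed. Sox7, the third SoxF gene, was lower too in p75-sorted cells than in LM, OFT and UM, at -0.83, -1.41 and -1.003 (adjusted p of 0.0025, 9.9e-05 and 0.00077).

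Endothelial genes were measured beside the SoxF genes. Of 12, 8 were lower in p75-sorted cells than in LM, 11 lower than in OFT and 8 lower than in UM, with 0 higher; list medians were -0.80, -1.41 and -0.78. Pecam1, an adhesion molecule of endothelial junctions, read 2.24 and 1.46 in p75-sorted cells and 76.7 to 229 elsewhere. Cdh5, the endothelial cadherin, differed by -1.24 from LM and by -1.87 from OFT, both called. In OFT, 5 of the 12 were higher than in LM, led by the angiopoietin receptor Tek at 1.51 and its relative Tie1 at 1.09, and 6 were higher than in UM; LM and UM differed in 0. Summed intensities were 509 to 512 in p75-sorted cells, 1352 to 1426 in LM, 1291 to 1453 in UM and 2034 to 2462 in OFT. The sort for p75 precedes these values, and the part of endothelial cells in the SoxF differences was not tested.

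Macrophage genes, also tissue residents outside the crest, had 3, 4 and 3 of 4 lower in p75-sorted cells than in LM, OFT and UM, and 1 of 4 higher in OFT than in LM and than in UM. Erythroid genes had 2, 1 and 2 of 4 lower in p75-sorted cells against LM, OFT and UM, and 1 lower in OFT than in UM. Their summed intensities were 9629 to 12059 in p75-sorted cells, 13866 to 16849 in OFT, 18604 to 25613 in UM and 20781 to 32048 in LM. All 8 heart muscle genes were higher in OFT than in LM, UM and p75-sorted cells, which in turn had 4 above LM and 7 above UM; LM had 2 above UM. All 4 skeletal muscle genes were higher in LM, OFT and p75-sorted cells than in UM; p75-sorted cells had 3 higher and 1 lower than LM and 3 higher than OFT, and OFT had 1 lower than LM. These lists moved between the same origins as the Sox genes, and their part in the Sox values was not tested.

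Between FAK mutants and controls 0 of the 9 Sox genes passed, and 0% of all genes did. Across the 13545 genes limma called 0, with 410 at an unadjusted p under 0.05, none of them a Sox gene described here, and a smallest adjusted p of 0.749. The fitted differences of the 9 genes ran from -0.21 ± 0.14 for Sox18 to 0.11 ± 0.14 for Sox2 (SE, n = 4 pairs), with a median of 0.04 against -0.01 over all genes, and the adjusted p was 1.0 for each. Sox9 differed by -0.05 ± 0.12, Sox17 by -0.15 ± 0.13, Sox4 by 0.10 ± 0.13 and Sox6 by 0.09 ± 0.12. No Sox gene had the same sign in all 4 pairs.

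Single pairs varied more than the fitted values. Sox18 mutants differed from controls by -0.37 in LM and -0.55 in OFT, and by 0.05 and 0.04 in p75-sorted cells and UM. Sox5 differed by -0.50 in LM, and by 0.35 and 0.39 in p75-sorted cells and UM, with 0.00 in OFT. Sox11 differed by 0.44 in OFT and by -0.52 in UM, Sox17 by -0.45 in UM, and Sox2 by 0.45 in LM and 0.25 in OFT but -0.18 in UM. In the OFT pair 7.22% of all tested genes differed by at least 0.5 in either direction, in the UM pair 7.79%, in the p75-sorted pair 10.1% and in the LM pair 12.9%. Each of these differences rests on a single array per genotype and has no replicate check. Among the 12 gene lists, 0 genes passed between mutant and control.

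**Figure D4:**
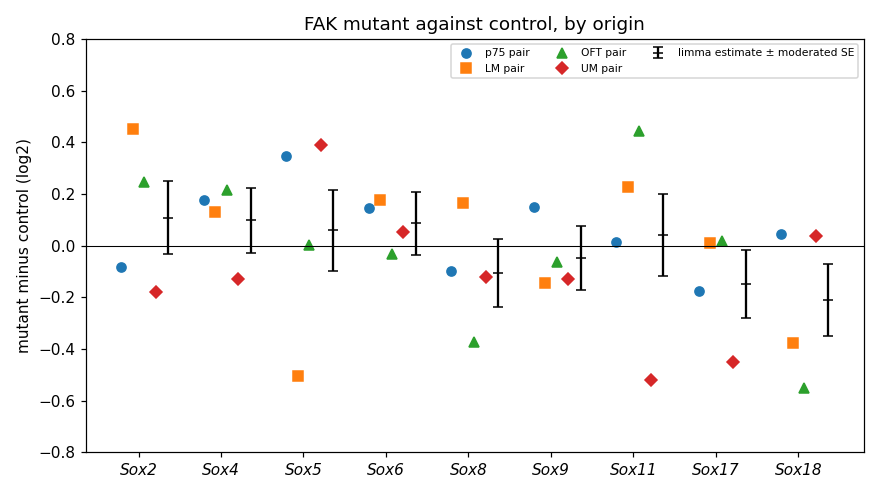
Mutant minus control log2 difference (vertical axis) of each of the 9 Sox genes in the 4 pairs of arrays, with limma's estimate and its moderated SE in black. For each gene the 4 pairs fall on both sides of 0, and the widest are Sox11 in UM, at -0.52, and Sox18 in OFT, at -0.55.

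Of 11 further Sox genes with a probe set, 6 were tested, Sox3, Sox7, Sox10, Sox12, Sox13 and Sox21. Sox3, the SoxB1 relative of Sox2, was lower than in UM in LM, at -0.87 (adjusted p = 0.042), and in OFT, at -0.78 (adjusted p = 0.017), the comparisons in which Sox2 was lower. Sox3 was dim, and in LM and OFT it lay near the filter intensity of 19.4. It read 12.1 and 19.9 in LM, 13.5 and 24.7 in OFT, and 47.9 and 63.7 in UM, control then mutant. Sox21, a SoxB2 gene that counters SoxB1 proteins in neural progenitors, was higher in p75-sorted cells than in LM, at 0.81 (adjusted p = 0.0052), and OFT, at 0.76 (adjusted p = 0.0094), as was Sox2. Among HMG-box factors of the Tcf and Lef type, 3 were tested. Lef1, which carries Wnt signals to DNA, was lower in OFT than in LM and UM, at -1.60 and -2.33, and lower in p75-sorted cells than in LM and UM, at -1.14 and -1.87; Tcf7l2 was lower in p75-sorted cells than in OFT, at -0.61.

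Across the 8 arrays the patterns of Sox9 and Sox17 correlated at r = 0.981, of Sox9 and Sox18 at 0.951 and of Sox17 and Sox18 at 0.915 (Pearson, log2 values, 8 arrays). Sox4 correlated with Sox9 at 0.862 and with Sox5 at -0.889, and Sox2 with Sox5 at 0.543. These describe the same 8 arrays, in which the 2 p75-sorted ones stand apart, and carry no test. Of all tested genes, those most like Sox2 were Atp6v1b2, Gm3515 and Insm1, at r = 0.955, 0.944 and 0.933. Ccdc8, Pdgfc and Phtf2 were most like Sox4, at 0.976, 0.968 and 0.965, and Sae1, Iws1 and Upf2 most like Sox11, at 0.954, 0.948 and 0.936. Nearest to Sox5 were Shc4, Asic1 and Tbcb, at 0.992, 0.987 and 0.984, and nearest to Sox6 were Rarres2, Gas6 and Cxcl5, at 0.980, 0.978 and 0.972. Sox8 had Nrn1, Boc and Ubxn2a, at 0.960, 0.952 and 0.950, and Sox9 had S100pbp, 9530068E07Rik and She, at 0.992, 0.985 and 0.984. For Sox17 they were Lysmd3, Cd93 and Dsg2, at 0.992, 0.982 and 0.982, and for Sox18 Odr4, Resf1 and 1810019D21Rik, at 0.992, 0.990 and 0.989. Cd93, a surface receptor of endothelial cells, came behind Lysmd3 and level with Dsg2 for Sox17, and none of these 3 was in the endothelial list.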

How the data were processed

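RNA of 8 samples was measured on Affymetrix mouse arrays. The authors deposited linear intensities of 45101 probe sets, made with software and scaling not given in the sources used here. The mean between the 2nd and 98th percentiles lies between 149.951 and 149.957 on all arrays, so no further scaling was applied. The number of arrays limits the precision.

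Of the probe sets, 34945 named exactly 1 gene in the platform annotation supplied, covering 18193 genes; updating symbols through the GRCm38.p6 gene table changed 0. A gene was represented by its brightest probe set by mean intensity and tested if it exceeded an intensity of 19.4, the 40th percentile, on at least 2 arrays. Values were turned into log2(intensity + 32) and fitted with limma 3.58.1 in R 4.3.3, with terms for origin and genotype; 3 degrees of freedom remained, and the prior had 9.06. The Benjamini-Hochberg adjustment ran over 13545 genes in each of 8 comparisons, with a threshold of 0.05. The script was tested on simulated data. The probe sets were fitted in the same way as a separate table. Where the mean of the probe sets of a gene was used, it took in also those that failed the filter.

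The labels pair control and mutant arrays by origin. Deviations from genotype means correlated at 0.854 within the p75-sorted pair, 0.520 within LM, 0.671 within OFT and 0.577 within UM, which a shared tissue alone could give.

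The rule for named genes took all 9 Sox genes, the 3 genes most correlated with each, called Sox relatives, and up to 4 called genes of a list, those with the largest differences. The members and lists were chosen with earlier results of these data known. The 12 lists cover Sox relatives, cartilage, endothelium, neural progenitors, neurons, crest and glia, Tcf and Lef factors, epithelium, heart and skeletal muscle, erythroid cells and macrophages. Alternatives were pseudocounts of 1 and 100, quantile normalization, no filter, the mean of the probe sets of a gene, leaving out probe sets of x and s type, an intensity trend, the 6 arrays without p75-sorted cells, no replicate block, and leaving out each array in turn.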

Additional observations from a re-analysis of the deposited data

How the results depend on the processing

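The counts of called Sox genes were recomputed under 15 to 17 alternatives per comparison. Between mutant and control, limma called 0 of the 9 in each, also with no replicate block; over all genes 1 passed without the LM control and 1 without the LM mutant. The count for any difference among origins was 3 with the 6 arrays of LM, OFT and UM, against 6. A pseudocount of 1 left 0 calls in OFT against LM, 0 in OFT against UM and 0 in LM against UM, where there were 2, 3 and 1. In OFT against LM the mean of the probe sets gave 4, Sox2, Sox6, Sox11 and Sox17, and leaving out x and s type probe sets gave 1. With 1 array left out at a time, the counts ran from 4 to 6 for any difference among origins, from 0 to 3 in OFT against LM and in OFT against UM, and from 3 to 6 in p75-sorted cells against OFT, with 3 without the p75-sorted mutant. An origin left with 1 array is taken to vary like the others. Its pair then adds nothing to the genotype difference, so leaving out its control or its mutant gives the same genotype fit. Comparisons between the remaining origins repeat in the same way. The tallies of alternatives below count such repeats separately.

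Of the alternatives to the 22 called differences of single genes, 282 kept sign and call, 53 lost the call and 1 reversed. The reversed one was Sox5 in p75-sorted cells against UM, at -0.027 with the mean of the probe sets. Of those to the 41 uncalled differences, 610 kept both, 14 passed and 30 reversed; the causes were not tested. With the mean of the probe sets, Sox4 in p75-sorted cells against UM became 0.0059, Sox6 became -0.023 in LM against UM and 0.093 in p75-sorted cells against LM, and Sox11 in LM against UM -0.051. After quantile normalization, Sox8 in p75-sorted cells against OFT became 0.00078, and Sox11 -0.031 in LM against UM and 0.0040 in p75-sorted cells against LM. With the 6 arrays, the genotype difference of Sox5 was -0.037.

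Leaving out 1 array at a time, the genotype difference ran from -0.0051 to 0.21 for Sox2, -0.051 to 0.25 for Sox5 and -0.093 to 0.23 for Sox11. OFT minus LM ran from -0.022 to 0.14 for Sox4 and -0.18 to 0.57 for Sox5, and OFT minus UM from -0.66 to 0.084 for Sox11. LM minus UM ran from -0.34 to 0.41 for Sox11, -0.33 to 0.071 for Sox17 and -0.10 to 0.23 for Sox18. p75-sorted cells minus LM ran from -0.11 to 0.010 for Sox6, minus OFT from -0.23 to 0.12 for Sox8 and -0.066 to 0.47 for Sox11, and minus UM from -0.46 to 0.29 for Sox11.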
